A study of Mus musculus with 2 samples.

Results

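Cluster 11 is one of the clusters of ventricular interstitial cells that the study named macrophages/monocytes, called macrophage clusters below. It bears no finer subtype name there, and none is given to it here. Its members are all 729 genes of the cluster's genotype comparison, out of 6477 distinct genes that the 18 cluster comparisons list together. The cells came from 2 mouse libraries, 1 per group, collected 6 days after myocardial infarction by ligation of the left anterior descending artery. The control group was PostnMCM, in which a tamoxifen-inducible Cre is driven from the Postn locus. The other group was Yapfl/fl;Wwtr1fl/+;PostnMCM, in which the same Cre removes both Yap alleles and 1 Wwtr1 allele in myofibroblasts that express periostin. Both strains carried R26-eGFP, and both received chow with 0.4 g/kg tamoxifen citrate for 6 days from the time of infarction. Periostin marks activated fibroblasts and not macrophages, so the Cre was directed at the neighbours of the cells described here.

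Each library is a single sample, and nothing in the labels says how many hearts entered it. No test of genotype is possible, no difference below carries an error across animals, and genotype cannot be told apart from any other difference between the 2 libraries. The second library is therefore called the library labelled depleted. Neither Yap1, Wwtr1 nor Postn was listed for cluster 11, so the excision could not be checked in these cells. In the 4 fibroblast subclusters of the same libraries that have a comparison, the targeted transcripts were not uniformly less frequent. The study's subclusters 1 and 2 have none, and it describes subcluster 1 as coming mainly from the hearts labelled depleted. Postn was counted in 87% and 100% of cells of subcluster 5. In subclusters 0, 3 and 4 it was counted in 25.5% and 28.1%, 40% and 13%, and 10% and 20%. Yap1 was counted in 46.2%, 23.3%, 57.5% and 30.4% of control cells of subclusters 0, 3, 4 and 5 and in 56.2%, 43.5%, 40% and 47.6% of cells labelled depleted, so its share was higher in 3 of 4. Wwtr1 stood at 81.4%, 93.3%, 80% and 100% against 90.6%, 91.3%, 60% and 85.7%, so its share was lower in subclusters 3, 4 and 5. Where the excised parts lie relative to the counted 3′ ends is not given in the sources used here, so these counts need not report the excision. By immunostaining, the study reports markedly less nuclear Yap and Wwtr1 protein in eGFP-positive myofibroblasts of this genotype after infarction. From target genes, it also scored Yap, Wwtr1 and Tead1 activity as lower in the fibroblasts of these libraries. What is given for each gene is a share: the percentage of the cluster's cells from 1 library in which the gene had a count above 0. Differences are the share in the library labelled depleted minus that in the control library, in percentage points. The number of cells and their depth are not given. The shares took 142 distinct values in the control library, with a smallest step of 0.6 points, and 49 in the library labelled depleted, with a smallest step of 2 points, so the second set is the coarser. A share of 2.1% in that library, as for Trem2, is 1 step above 0.

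Macrophages of the infarcted heart derive from resident cells seeded early in life and from circulating monocytes that enter after injury, the latter often marked by the chemokine receptor Ccr2. They clear dead cells and debris through Fc, complement, scavenger and C-type lectin receptors, depend on colony stimulating factor 1 acting on Csf1r, and can present antigen on MHC class II molecules. A related population of monocyte-derived cells carries the lectin Cd209a together with antigen presentation genes. Conventional dendritic cells, which also present antigen, depend on the receptor tyrosine kinase Flt3.

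The listed genes were weighed against these identities first. Of 18 macrophage and monocyte markers, 11 were listed. Ccr2 was counted in 87.5% of control cells and 75% of cells labelled depleted, and Itgam, the alpha chain of complement receptor 3, in 83.3% and 68.8%. In the 4 fibroblast subclusters of the same libraries, which should lack both genes, the highest shares were 22.5% and 30% for Ccr2 and 35% and 33.3% for Itgam. Both genes thus stood well above that background, although the depths of the cells compared are unknown. Lyz2, encoding lysozyme, did not: its 76.4% and 45.8% were below the 80% to 90% and 47.6% to 70% seen in fibroblast subclusters and are read as background. Csf1r, at 79.2% and 50%, was above the fibroblast range of 13% to 60% in the control library only, since the range in the other library was 23.8% to 70%. That 70%, the 70% for Lyz2 and the 30% for Ccr2 came from subcluster 4. Its shares in the library labelled depleted moved in steps of 10 points, so levels set by it are coarse. Among the 11 markers, 8 exceeded the highest fibroblast subcluster in the control library and 7 in the library labelled depleted. The macrophage genes Adgre1 and Cd68 were not listed and have no value here.

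Markers of Cd209a-type antigen-presenting cells were at least as prominent. Of 20 written down, 10 were listed, and the 8 with a fibroblast value exceeded it in both libraries. Napsa, an aspartic protease, was counted in 96.5% and 100% of cells. Ciita, the master regulator of MHC class II transcription, was counted in 88.2% and 89.6%, against at most 8.3% and 6.2% of fibroblasts. Flt3 reached 50% and 75%. Cd209a itself was not listed. The macrophage label therefore sits beside a set of antigen presentation and dendritic-type genes in the same cells or in a mixture of cells, which shares summed over a cluster cannot separate. None of the B cell, endothelial, cardiomyocyte or mast cell markers was listed. Klrd1 was the only listed one of 20 T and NK cell markers, and Pf4 the only one of 12 erythroid and platelet markers.

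**Figure D1:**
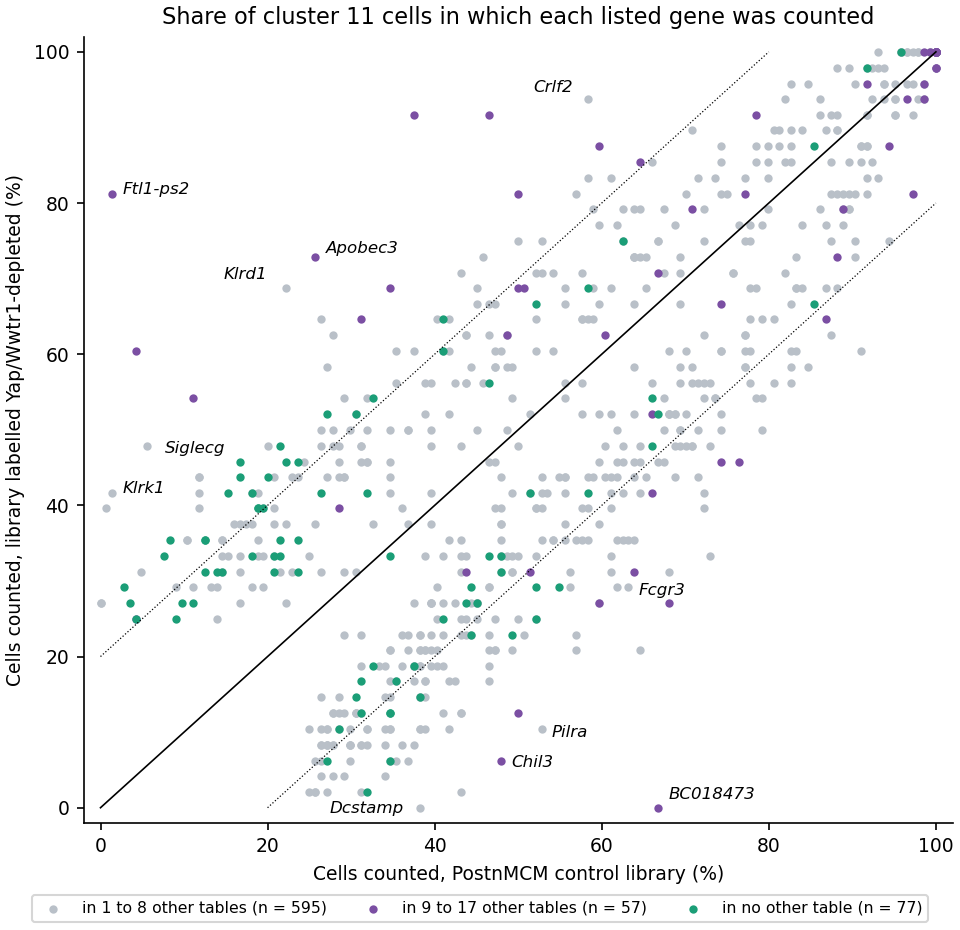
Share of cluster 11 cells in which each of the 729 listed genes was counted, in the PostnMCM control library (x axis, %) and in the library labelled Yap/Wwtr1-depleted (y axis, %); 1 point is 1 gene, coloured by the number of other cluster tables that list it. The solid line marks equal shares and the dotted lines a difference of 20 points, past which 140 genes lie below and 89 above (71 and 137 after centring on the median difference).

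Over the 729 genes the share was lower in the library labelled depleted for 399 (54.7%), higher for 299 (41%) and equal for 31. The median difference was -4.8 points, with quartiles at -18.1 and 11.1. A difference of at least 20 points marked 140 genes with a lower share, 19.2% of those listed, and 89 with a higher share, 12.2%. After centring on the median difference the same limit marked 71 lower and 137 higher, so which direction holds more genes turns with that choice. The genes nearest that limit were Fam122a at -20.1 and Slc35f6 at -19.5 points below, and Nt5c3 at 20.1 and Map4k1 at 19.5 above. These proportions describe a list that the study had already limited to genes with a difference in mean level between the same 2 libraries, so nothing is read from them. At the top of the scale, 50 genes were counted in at least 95% of cells of both libraries and 28 in 100% of both, where a share can show no difference.

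First come the Fc, complement and phagocytic receptors, the surface molecules with which macrophages bind opsonised particles, fungal sugars and dying cells. Of 32 receptors, 21 were listed, and all 21 had the lower share in the library labelled depleted, beside 54.7% of all listed genes. Their median difference was -18.8 points, beside -4.8 for all, and 9 of the 21 differed by at least 20 points. The study listed a gene only where its higher share reached 25%. Pilra, Cd300lf, Msr1, C5ar1, Clec5a, Clec4d, Clec4e and Fcgr4 were below 25% in the library labelled depleted, so that rule alone set their direction. The group median share was 54.9% of control cells and 31.2% of cells labelled depleted.

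Pilra, an inhibitory receptor of the paired immunoglobulin-like type 2 family, was counted in 52.8% of control cells and 10.4% of cells labelled depleted, a difference of -42.4 points. Cd300lf, a lipid-binding receptor that takes part in the uptake of apoptotic cells, was counted in 56.9% and 20.8%. Fcgr3, the low-affinity activating receptor for immunoglobulin G, was counted in 63.2% and 29.2%. All 3 were seen in most control cells and in a minority of the others. Clec4a2, a C-type lectin with an inhibitory motif, stood at 72.2% and 41.7%. The scavenger receptor Msr1 stood at 35.4% and 6.2%.

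These receptors were not at the level of background in control cells: all 21 exceeded the highest fibroblast subcluster of that library. In the library labelled depleted 17 of the 21 still did. The other 4 were Pilra, at 10.4% against up to 14.3% of fibroblasts, Msr1, at 6.2% against up to 10%, C5ar1, the receptor of complement fragment C5a, at 2.1% against up to 40%, and Clec4d, at 8.3% against up to 13%. All 4 were listed through the control library alone, so nothing is read from the contrast of 21 with 17. Their remaining counts are read as background.

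**Figure D2:**
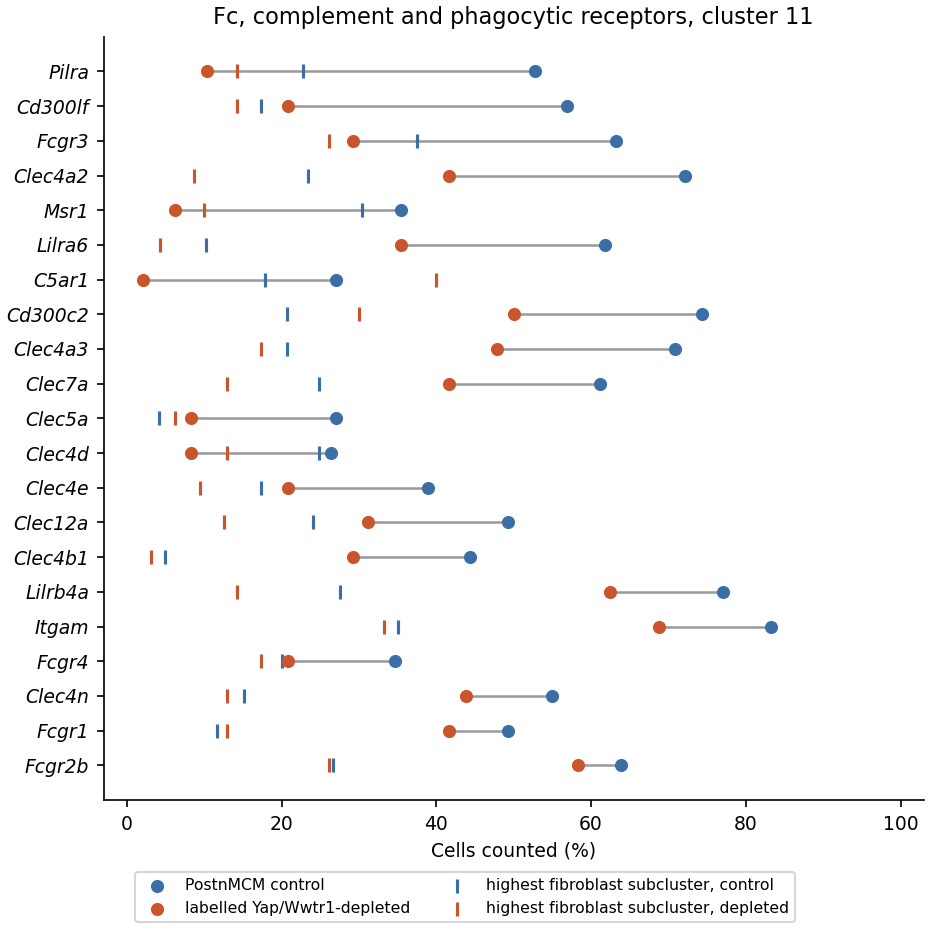
The 21 listed Fc, complement and phagocytic receptors, ordered by difference, with the share of cluster 11 cells (x axis, %) in the control library (blue points) and in the library labelled depleted (orange points), and ticks for the highest of 4 fibroblast subclusters in each library. Every orange point lies to the left of its blue point, from Pilra at 10.4% and 52.8% to Fcgr2b at 58.3% and 63.9%.

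The size of the difference varied within families. Among Fc gamma receptors, Fcgr3 differed by -34 points and Fcgr4 by -13.9, from 34.7% to 20.8%. The high-affinity receptor Fcgr1, at 49.3% and 41.7%, and the inhibitory receptor Fcgr2b, at 63.9% and 58.3%, differed by less, by -7.6 and -5.6 points. Fcgr3 (chr1:170878738-170893549), Fcgr4 (chr1:170846466-170857330) and Fcgr2b (chr1:170786186-170804177) are neighbours on chromosome 1 (GRCm39, GENCODE positions), so the activating and inhibitory members of 1 locus stood at unequal distances from control.

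C-type lectins formed 9 of the 21. Clec7a, the beta-glucan receptor Dectin-1, was counted in 61.1% of control cells and 41.7% of cells labelled depleted. Clec4e, the mycobacterial glycolipid receptor Mincle, was counted in 38.9% and 20.8%, and Clec12a in 49.3% and 31.2%. Clec4n, known as Dectin-2, showed the smallest difference of the lectins, at 54.9% and 43.8%. Clec4b1, at 44.4% and 29.2%, was the 1 receptor of the 21 that no other cluster table listed.

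Shares of the same receptors in the other 4 macrophage clusters, which come from the same 2 libraries and so are no independent comparison, did not all lie on the same side. Of the 21, cluster 0 listed 10, with 5 lower, 4 higher, 1 equal and a median of -4.9 points. Cluster 3 listed 10, with 4 lower, 6 higher and a median of 1.8. Cluster 12 listed 9, all lower, with a median of -21.1, and cluster 13 listed 15, with 5 lower, 10 higher and a median of 3.2. The 21 were taken because cluster 11 lists them, which leaves out receptors that only the other clusters list. Over the whole list of 32, cluster 0 listed 18, with 5 lower, 11 higher and a median of 2 points, so its median changes sign. Cluster 3 then listed 15, with 4 lower, 11 higher and a median of 3.9, cluster 12 listed 10, with 9 lower, 0 higher and a median of -19.1, and cluster 13 listed 16, with 5 lower, 11 higher and a median of 5.7. Pilra was listed in all of them, at 82.2% and 72.4% in cluster 0, 72.7% and 57.2% in cluster 3, 85.4% and 72.2% in cluster 12, and 62.1% and 25.4% in cluster 13. Its share was lower in the library labelled depleted in each of them. Fcgr3 was listed in none of the 4. C5ar1 was at 27.1% and 2.1% in cluster 11 but at 47.4% and 78.9% in cluster 13. Whether the receptor difference of cluster 11 is larger than that of the other clusters was not tested, since there is no replicate to test it with.

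**Figure D3:**
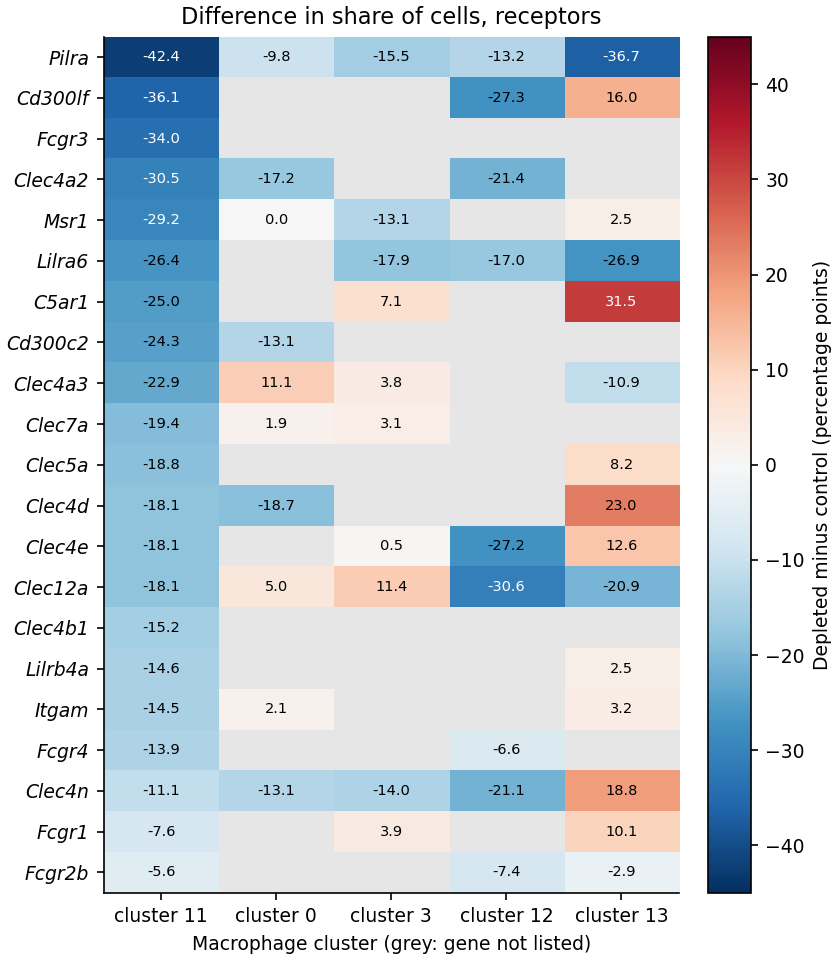
Difference in share of cells (depleted minus control, percentage points, colour scale and printed values) for the 21 receptors in cluster 11 and in the macrophage clusters 0, 3, 12 and 13; grey cells mark genes a cluster's comparison does not list. The cluster 11 column is negative throughout, from -42.4 to -5.6, and the cluster 13 column runs from -36.7 to 31.5.

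Receptors for chemokines and cytokines lay on the same side. All 11 that were listed of 29 had the lower share, with a median difference of -17.4 points, beside 54.7% lower and a median of -4.8 over all 729 genes. Of the 11, 8 exceeded the highest fibroblast subcluster in the control library and 6 in the other. Besides Csf1r, they included Csf3r, the receptor of granulocyte colony stimulating factor, at 38.9% and 16.7%, the tumour necrosis factor receptor Tnfrsf1a at 67.4% and 45.8%, and Csf2rb, the beta chain shared by interleukin 3, interleukin 5 and GM-CSF receptors, at 94.4% and 75%. Tnfrsf1a is also counted in 87% to 98.6% of control fibroblasts, whereas Csf2rb is counted in at most 18.6% of them. Cx3cr1, the fractalkine receptor, differed by -10.4 points, from 47.9% to 37.5%.

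Genes that mark macrophage states were mostly lower too, but many were at the fibroblast level. Of 20 genes of resident cardiac macrophages, 8 were listed and all 8 were lower, with a median of -15.2 points, beside 54.7% and -4.8 for all 729 genes. C1qb, a chain of complement C1q, was counted in 46.5% and 18.8% of cells, and the chemokine Pf4 in 36.1% and 8.3%. Fibroblast subclusters showed C1qb in 77.5% to 82.8% of control cells and Pf4 in 34.8% to 51.7%, so neither can be read as made by cluster 11. Selenop, the plasma selenium carrier, was at 54.2% and 35.4%, and the lipid carrier Apoe at 97.2% and 81.2%. Of the 8, 2 exceeded the fibroblast level in control cells.

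Lipid-associated macrophage genes were listed for 9 of 20, with 8 lower and a median of -21.5 points, and this count and the next stand beside 54.7% lower and a median of -4.8 over all 729 genes. Ctsd, the lysosomal protease cathepsin D, was counted in 72.9% and 33.3% of cells, Trem2, a lipid-sensing receptor, in 31.2% and 2.1%, and Spp1, osteopontin, in 38.9% and 10.4%. Control fibroblasts showed all 3 more often, in at least 92.5%, 36.7% and 60% of cells. Classical monocyte genes were listed for 10 of 20, with 8 lower and a median of -16.4 points. Chil3, a chitinase-like protein of monocytes and neutrophils, was counted in 47.9% and 6.2%, Hp, haptoglobin, in 42.4% and 16.7%, and the tetraspanin Cd9 in 71.5% and 50%. Fibroblasts reached 80% and 9.4% for Chil3, 43.5% and 26.1% for Hp and 100% in both libraries for Cd9, so none of the 3 exceeded them. How far free RNA or expression by the fibroblasts themselves sets those levels was not tested. Ly6c2, by which inflammatory monocytes are commonly sorted, was at 39.6% and 41.7%, above fibroblasts in both libraries and 2.1 points apart. Fn1, at 63.2% and 35.4%, is counted in 100% of fibroblasts.

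Neutrophil genes moved with these groups. Of 18 neutrophil markers, 11 were listed and all 11 were lower in the library labelled depleted, with a median of -24.3 points, where 54.7% of all 729 genes were lower with a median of -4.8. Retnlg, Lcn2, Hdc, Wfdc21, Csf3r, Cxcr2, Mmp8 and Mmp9 were below 25% in the library labelled depleted. They were listed through the control library alone, so the study's limit of 25% on the higher share set their direction. Summed over the 11, and under that limit, the shares came to 430.5 points in control cells and 154 in cells labelled depleted. Cluster 13 had 5 of 5 listed markers lower, clusters 0 and 3 had 2 of 2 each, and cluster 12 had 1 lower and 1 higher. S100a9, a calcium-binding alarmin abundant in neutrophils, was counted in 63.9% and 31.2%, and its partner S100a8 in 59.7% and 27.1%. Both were below the lowest control fibroblast subcluster, at 85% and 78.3%. Retnlg was counted in 37.5% and 8.3%, Lcn2 in 34.7% and 6.2%, Hdc in 27.8% and 8.3%, Wfdc21 in 31.2% and 8.3%, Csf3r in 38.9% and 16.7%, and Mxd1 in 39.6% and 27.1%.

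Cxcr2, the receptor that draws neutrophils to tissue, was counted in 34.7% and 10.4%, against at most 15.2% and 10% of fibroblasts. Mmp8, neutrophil collagenase, was counted in 27.8% and 4.2%, and Mmp9, gelatinase B, in 34.7% and 6.2%. Of the 11 markers, 6 exceeded the fibroblast level in control cells and 3 in the library labelled depleted. No listed marker was at 0. The listed neutrophil transcripts of cluster 11 lay on the same side as its listed phagocytic receptors, several of which neutrophils also express. Their part in the receptor difference was not tested. A lower share was also seen elsewhere. S100a9 was lower in all 12 other clusters that listed it, among them B cells (79.7% and 58.3%) and fibroblasts (49.7% and 9.1%). In the neutrophil clusters 1 and 18 the listed markers went both ways.

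**Figure D4:**
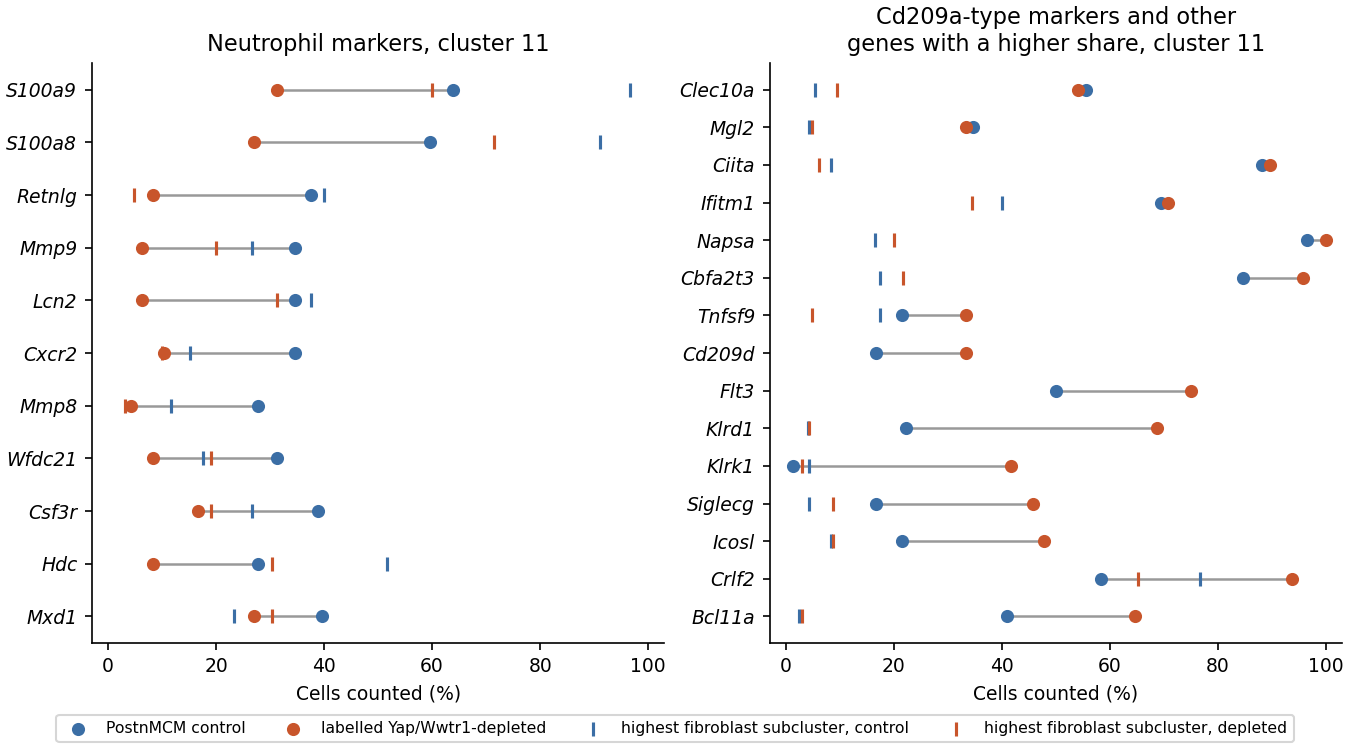
Share of cluster 11 cells (x axis, %) for the 11 listed neutrophil markers (left) and for the 10 listed Cd209a-type markers with 5 further genes named in the text (right); points and ticks are as in the plot of receptors, and Cd209d and Flt3 have no fibroblast value. The neutrophil markers lie lower in the library labelled depleted, whereas Klrd1 goes from 22.2% to 68.8% and Flt3 from 50% to 75%.

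Antigen-presenting cell genes lay on the other side. Of the 10 listed Cd209a-type markers, 8 had the higher share in the library labelled depleted, beside 41% of all listed genes, and the median difference was 7.3 points. Klrd1, which encodes CD94, was counted in 22.2% of control cells and 68.8% of cells labelled depleted, a difference of 46.6 points. Flt3 differed by 25 points, and Cd209d, a homologue of the lectin DC-SIGN, by 16.6, from 16.7% to 33.3%. Cbfa2t3, a transcriptional corepressor, was at 84.7% and 95.8%, and Tnfsf9, the 4-1BB ligand, at 21.5% and 33.3%. The rest, with Napsa and Ciita, lay within 3.5 points. Ifitm1 was at 69.4% and 70.8%, and the lectins Clec10a and Mgl2 were 1.4 points lower, at 55.6% and 54.2% and at 34.7% and 33.3%.

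Klrk1, encoding the activating receptor NKG2D, was counted in 1.4% of control cells and 41.7% of cells labelled depleted. Natural killer cells are the usual source of CD94 and NKG2D, and whether such cells contributed here was not tested. Fibroblasts showed Klrd1 in at most 4.3% and Klrk1 in at most 4.3% of cells. Among other lymphoid-type genes, chosen after their values were seen, Cd7 was at 27.8% and 62.5%, Cst7 at 18.8% and 35.4%, Klrb1b at 20.8% and 33.3%, and Klra2 at 29.9% and 8.3%. Klrd1 was listed for 2 other clusters, at 30.3% and 63.5% in cluster 7, of T cells, and at 50% and 81.8% in cluster 15. The latter has no cell type name. Klrk1 was otherwise listed only for cluster 7, at 16.2% and 38.4%. Both genes lie in the natural killer gene complex, Klrd1 at chr6:129568677-129575738 and Klrk1 at chr6:129587286-129600827. The lectin receptors Clec12a (chr6:129319654-129342266) and Clec7a (chr6:129438554-129449742) are in the same stretch of chromosome 6, and their shares were lower.

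Bst2 and Tcf4, which mark plasmacytoid dendritic cells among others, completed the dendritic cell markers that were listed, 3 of 18 with Flt3. Tcf4 was at 59% and 64.6%, and Bst2, tetherin, at 50% and 81.2%. Neither exceeded the highest fibroblast subcluster, where Tcf4 reached 100% and 95.2% and Bst2 100% in both libraries. Dendritic cells of cluster 17 showed Flt3 in 95% and 100%. Cluster 15 held Cd209d in 96.9% and 90.9%. MHC class II genes themselves gave little room for a difference: Ifi30, a lysosomal thiol reductase, was at 100% in both libraries, H2-DMb1, a peptide-exchange chaperone, was at 91% and 87.5%, and no classical class II chain was listed. MHC class I genes were listed for 6 of 19, with 4 higher, beside 41% of all listed genes. H2-Q6 was at 14.6% and 33.3%, the proteasome activators Psme1 and Psme2 at 93.1% and 100% and at 81.2% and 89.6%, and H2-K1 at 100% and 97.9%.

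Interferon-stimulated genes were divided. Of 45, 9 were listed, 6 with a higher and 3 with a lower share, and the median difference was 10.4 points. Over all 729 genes 41% were higher and 54.7% lower, with a median of -4.8. Isg15, a ubiquitin-like modifier, was at 27.8% and 50%, and Ifi35 at 52.1% and 66.7%. Gbp7, a guanylate-binding protein, was at 47.2% and 20.8%. In the library labelled depleted none of the 9 exceeded the highest fibroblast subcluster, where Isg15 reached 87.5% and Gbp7 75%. The IFI200 family, DNA sensors encoded side by side on chromosome 1, showed both directions within 1 locus, with 3 of 5 listed members higher and 2 lower. Ifi202b (chr1:173790134-173810414) was counted in 0% of control cells and 27.1% of cells labelled depleted. Mndal was at 59.7% and 87.5% and Ifi205 (chr1:173839549-173859456) at 11.8% and 43.8%, whereas Ifi204 (chr1:173574859-173594610) was at 37.5% and 18.8% and listed in no other cluster. Ifi209 was also lower, at 66% and 56.2%, and was the 1 member above fibroblasts, which reached 10% and 4.8%. The other 4 did not exceed the highest fibroblast subcluster of the same library where they were counted, at 0% and 82.6% for Ifi202b, 84.8% and 93.8% for Mndal, 54.5% and 43.8% for Ifi205, and 93.8% and 100% for Ifi204. Whether fibroblasts express these genes themselves was not tested. Ifi205 was otherwise listed for cluster 17 alone, at 100% and 90.9%.

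Inflammatory genes were few. Of 24 inflammasome and cytokine genes, 7 were listed and 5 were lower, beside 54.7% lower over all 729 genes, whose median was -4.8 points. Il1b, interleukin 1 beta, was at 68.8% and 47.9%, the protease inhibitor Slpi at 38.2% and 14.6%, and Tgfb1 at 77.8% and 64.6%. Among CC and CXC chemokines only Ccl6 and Pf4 were listed of 22, and Ccl6 was at 82.6% and 66.7%. Immediate early and feedback genes, which respond within minutes to stimuli and to tissue dissociation, were listed for 9 of 37, and all 9 were lower, with a median of -16 points, again beside 54.7% and -4.8. Jund was at 91% and 60.4%, the phosphatase Dusp6 at 38.2% and 18.8%, Klf2 at 52.8% and 35.4%, and Atf3 at 30.6% and 14.6%. Jun itself was at 79.9% and 79.2%. Of the 9, 1 exceeded the fibroblast level in control cells.

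The counts of the next lists stand beside 54.7% lower and 41% higher over all 729 genes. Integrin and adhesion genes were lower for 5 of 6 listed, among them Itgal, the alpha chain of LFA-1, at 49.3% and 20.8% and the hyaluronan receptor Cd44 at 77.8% and 60.4%. Lysosomal genes were lower for 6 of 8, with Cstb at 72.2% and 56.2%, Lamp1 at 84% and 68.8% and Ctsc at 88.9% and 77.1%. Of the 8, only Ctsc exceeded the highest fibroblast subcluster, at 56.5% and 34.8%, whereas Cstb and Lamp1 reached 100% of fibroblasts in both libraries. Nuclear-encoded respiratory chain genes were higher for 13 of 15, with a median of 6.2 points, led by Ndufa9 at 38.9% and 56.2%, Ndufa3 at 82.6% and 95.8% and Ndufs6 at 67.4% and 79.2%. Cell cycle genes were higher for 6 of 8, with Ccnd1, cyclin D1, at 43.1% and 70.8%, Cenpa at 11.1% and 29.2%, Ube2s at 47.2% and 60.4% and Ccnd3 at 78.5% and 85.4%. Ccnd1 was in at most 17.2% and 53.1% of fibroblasts and was the 1 gene of the 8 above them. Cenpa, Ube2s and Ccnd3 did not exceed the highest fibroblast subcluster, at 100% and 91.3%, 100% in both libraries, and 91.3% and 87.5%. None of the 15 respiratory chain genes exceeded it in either library.

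Glycolysis and hypoxia genes gave 6 lower and 3 higher of 10, from Slc16a3, a lactate exporter, at 38.2% and 14.6%, Tpi1 at 68.1% and 52.1% and Slc2a3 at 27.8% and 12.5% to Hk2, hexokinase 2, at 39.6% and 56.2%. S100 proteins were lower for 4 of 5, with S100a1 at 38.9% and 14.6% and S100a10 at 96.5% and 93.8%. The 1 listed annexin was Anxa4, at 46.5% and 29.2%. Actin cytoskeleton genes were equal for 4 of 8 at 100%. Capg, a filament capping protein, was at 63.9% and 45.8%, Myl12b at 97.2% and 91.7%, Vim at 100% and 97.9%, and Myh9 at 92.4% and 93.8%. Heat shock genes numbered 2 of 32, Pdia6 at 87.5% and 85.4% and Hspa1b at 26.4% and 31.2%. Only Myof, at 34.7% and 20.8%, and Lgals1, at 94.4% and 87.5%, were listed of 25 YAP/TAZ target and pathway genes. The fibroblast genes Mgp and Timp1, at 31.9% and 8.3% and at 29.2% and 31.2%, were counted in at least 90.6% of fibroblasts, and Xist was at 95.8% and 100%.

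How far the list of cluster 11 was its own was then asked by looking up each gene in the other 17 cluster tables. No other table listed 77 of the 729 genes, 10.6%. A further 449 were in 1 to 4 other tables, 146 in 5 to 8, and 57 in 9 or more. Cluster 17 shared the most, 248 genes, which is 34% of the cluster 11 list and 13% of its own. Cluster 13 shared 223, or 30.6% and 25%, and cluster 0 shared 219, or 30% and 23.7%. The smallest overlap was with the B cells of cluster 2, 57 genes, or 7.82% and 35.8%. These counts depend also on the length of each list, from 159 genes in cluster 2 to 1914 in cluster 17. A total of 62 genes were shared with macrophage clusters only, 265 with other cell types only, and 325 with both.

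Of the 77 genes listed for cluster 11 alone, 32 had a lower and 45 a higher share, with a median difference of 10.4 points, beside -4.8 for all 729. At least 20 points separated the libraries for 11 on the lower side and 22 on the higher side. Dcstamp, the fusion receptor of multinucleated osteoclasts and giant cells, was counted in 31.9% of control cells and 2.1% of cells labelled depleted. Mmp9 followed it among the lower genes. The others were also counted in fibroblasts. They were Ugp2 at 52.1% and 25%, Zfand3 at 49.3% and 22.9%, Tgoln1 at 54.9% and 29.2%, Mtss1 at 38.2% and 14.6%, Midn at 52.1% and 29.2%, Wdfy3 at 34.7% and 12.5%, Stard9 at 34.7% and 12.5%, and Mfsd6 at 44.4% and 22.9%. Of these 10, only Dcstamp was without a fibroblast value.

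The higher genes of this set included surface molecules of antigen-presenting and B cells. Siglecg, an inhibitory sialic acid receptor, was counted in 16.7% of control cells and 45.8% of cells labelled depleted, and Icosl, the ligand of the T cell costimulator ICOS, in 21.5% and 47.9%. Bcl11a, a transcription factor needed for dendritic and B cell development, was counted in 41% and 64.6%. Fibroblasts showed these genes in at most 4.3% and 8.7%, 8.3% and 8.7%, and 2.5% and 3.1%. Nectin1, an adhesion molecule, was at 8.3% and 35.4%, and the clock repressor Cry1 at 7.6% and 33.3%. The others were Med25 at 16.7% and 43.8%, Klhl18 at 15.3% and 41.7%, Ascc1 at 27.1% and 52.1%, Pafah1b3 at 20.1% and 43.8%, and the locus LOC118568167 at 2.8% and 29.2%. Of these, Nectin1, Med25 and Pafah1b3 were below the highest fibroblast subcluster in both libraries, at 39.1% and 40%, 73.3% and 75%, and 85.5% and 90%. Cry1, at 20% and 20%, Klhl18, at 37.2% and 37.5%, and Ascc1, at 57.5% and 50%, were exceeded only in the library labelled depleted. Being listed alone says only that no other comparison passed the study's limits, not that the gene was the same in both libraries elsewhere.

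At the other end were genes that most cell types of these libraries shared. Ftl1-ps2 was the 1 gene listed in all 17 other tables and had the largest difference of cluster 11, from 1.4% of control cells to 81.2% of cells labelled depleted. In the other clusters it ran from 0% to 5.2% in the control library and from 28.3% to 100% in the other, so the libraries did not overlap. BC018473, a long non-coding RNA gene (chr11:116642993-116650199), had the largest difference in the other direction, from 66.7% to 0%. The 15 other tables that listed it gave 29% to 100% in the control library and 0% to 1.1% in the other.

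**Figure D5:**
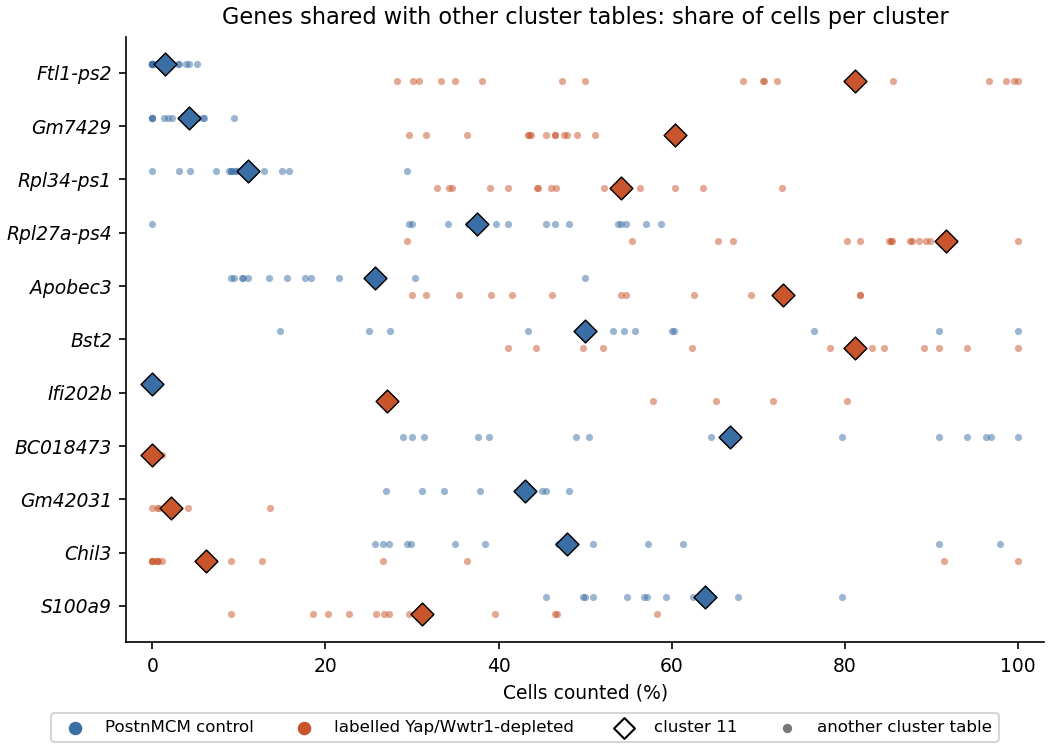
Share of cells (x axis, %) of 11 genes that several cluster tables list, in the control library (blue) and in the library labelled depleted (orange); diamonds are cluster 11 and small dots the other clusters. The libraries do not overlap, among others, for Ftl1-ps2, Ifi202b or BC018473, whose diamonds lie at 1.4% and 81.2%, 0% and 27.1%, and 66.7% and 0%.

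More of the largest differences recurred in other tables. Apobec3, a cytidine deaminase that restricts retroviruses, was at 25.7% and 72.9% in cluster 11 and was listed for 13 other clusters, at 9.1% to 50% and 30% to 81.8%. Gm42031, a long non-coding RNA gene, was at 43.1% and 2.1%, with 27% to 48.1% and 0% to 13.6% in 7 others. Gm51963 was at 0.7% and 39.6%. Mtmr9, a myotubularin-related phosphatase subunit, was at 64.6% and 20.8%, with 25% to 58.8% and 0% to 16.1% in 6 others. Ifi202b was at 0% of control cells in all 6 clusters that listed it. S100a9 and Chil3 were listed in 12 and 14 other tables.

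Some other genes with large differences were also listed elsewhere. Gadd45gip1, in 11 other tables, was at 50% and 12.5%, and Eif4ebp1, a translation repressor in 8 others, at 68.1% and 31.2%. The sialyltransferase St6galnac2, in 2 others, was at 38.2% and 0%. On the higher side, Crlf2, a subunit of the thymic stromal lymphopoietin receptor, was at 58.3% and 93.8%, Lta4h, which makes leukotriene B4, at 26.4% and 64.6%, and the catenin Ctnnd2 at 5.6% and 47.9%. Fibroblasts reached 76.7% and 65.2% for Crlf2 and 76.7% and 90% for Lta4h. Crlf2 exceeded them in the library labelled depleted only, and Lta4h in neither library. Ctnnd2 was otherwise listed only for cluster 15, at 3.1% and 27.3%, and fibroblasts showed it in at most 2.5% and 8.7%.

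Pseudogenes made up 9 of the 729 genes, and 5 of them were among the 12 genes with the largest higher differences. Processed pseudogenes are reverse-transcribed copies of messenger RNAs, and reads from copy and source can be assigned only by the bases at which they differ. Aligned to coding transcripts, the 9 were 97.7% to 99.8% identical to their nearest coding gene, so each value is uncertain as a measure of the locus named. Ftl1-ps2 (chr10:130428026-130428574, minus strand) is a copy of Ftl1, the ferritin light chain (chr7:45107367-45109308, minus strand), which was counted in 100% of cells of both libraries. The copy differs from the 549 coding bases of Ftl1 at 12 positions. Its closest match was the annotated coding gene Ftl1-ps1, at 98.2%, which was not listed for cluster 11. The last 120 coding bases of both are shown because this end of the gene lies nearest the 3′ end from which the reads were primed; capitals mark the 3 bases at which they differ in the GRCm39 reference:
Ftl1: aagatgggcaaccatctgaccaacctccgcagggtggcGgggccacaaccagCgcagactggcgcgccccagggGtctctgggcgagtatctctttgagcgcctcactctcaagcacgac
Ftl1-ps2: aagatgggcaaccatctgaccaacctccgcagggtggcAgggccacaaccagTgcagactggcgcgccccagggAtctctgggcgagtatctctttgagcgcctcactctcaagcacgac

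A pair of copies of Rpl30, a protein of the large ribosomal subunit, lay on opposite sides. Gm12191 was counted in 68.1% of control cells and 27.1% of cells labelled depleted, and Gm7429 in 4.2% and 60.4%. Rpl30 itself was at 100% in both. In the other clusters that listed them, Gm12191 ran from 37.5% to 67.8% and from 7.7% to 39.6%, and Gm7429 from 0% to 9.4% and from 29.7% to 51.1%. Aligned to Rpl30, Gm12191 was 99.7% and Gm7429 98.9% identical.

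Other copies were Rpl27a-ps4 at 37.5% and 91.7%, Gm15682, nearest to Rpl21, at 46.5% and 91.7%, Rpl34-ps1 at 11.1% and 54.2%, Rps15a-ps4 at 4.9% and 31.2%, and Gm9794, nearest to Rpl23, at 34.7% and 50%. Rps15a-ps4 and Gm9794 fall outside the rule for naming genes and were chosen after their values were seen. All 11 listed ribosomal protein genes, by contrast, were at 100% in both libraries. Rps3a1 was among the genes listed by the most clusters, 15 others, without any room for a difference in share.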

How the data were processed

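Live-sorted ventricular interstitial cells were captured with 10x v3.1 chemistry. Per the labels and the study's methods, reads were counted with Cell Ranger 6.1.1 on GRCm39, libraries were combined without depth normalization, and Seurat normalized (SCTransform) and clustered the cells; no doublet caller was named. The deposited tables give, per cluster and gene, the fraction of each library's cells with a corrected count above 0; the authors listed only genes whose higher share reached 25% and with a log2 fold change of at least 0.25. Fractions were read here as percent to 1 decimal. The deposited fold changes and p-values are the authors' own genotype comparison and were not used. Counts, cell numbers and depth were not analysed here, so no interval is given; 1 library per genotype allows no test. A size limit of 20 points, lookup in 17 other cluster tables, and 36 gene lists described the genes (Python 3.11.15, pandas 2.3.3); the counting was tested on simulated data. The share in 4 fibroblast subclusters served as a comparison level, read as background only for genes that fibroblasts should lack; free RNA was not measured. Pseudogenes were aligned with blastn 2.17.0; positions are from GENCODE vM39, not the authors' NCBI annotation. Genes were named by a fixed rule: the 12 largest differences in each direction, the 10 largest among genes listed here alone, up to 4 per list, all listed markers, and the 6 most widely listed. Some items are not reported here. Genes, lists and limits were chosen with earlier results of these data known. The labels and the study's methods differ by a day on collection, and the labels are followed.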

Additional observations from a re-analysis of the deposited data

Results flagged for a closer look

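In 8 of the genes reported here, the share in cluster 11 was at least 20 points lower in the library labelled depleted while another macrophage cluster of the same libraries showed it at least 10 points higher. None of these differences between clusters was tested, as there is 1 library per genotype. For 5 genes the other cluster was cluster 13. Cd300lf differed by -36.1 points in cluster 11 and 16 in cluster 13. C5ar1 differed by -25 and 31.5. The lactate exporter Slc16a3 differed by -23.6 and 31.8. Cd9 differed by -21.5 and 19.8, and Il1b by -20.9 and 14.3. Jund differed by -30.6 points in cluster 11 and 10.1 in cluster 12. Against cluster 0, Gbp7 differed by -26.4 in cluster 11 and 15.5 there, and Clec4a3 by -22.9 and 11.1.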

How the results depend on the processing

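With 1 library per group there was no replicate to leave out, and a replicate block could not be fitted. No paired analysis was possible because only 1 library stood for each genotype. Every value is a share that saturates near 100% and comes from cells whose number and depth are not given. The counts moved with the limit chosen: 322 genes were lower and 191 higher by at least 10 points, and 25 and 19 by at least 30. Centring on the median difference of all listed genes gave 71 lower and 137 higher at 20 points, so which direction holds more genes depends on that choice. Among genes that no other cluster listed, 11 were lower and 22 higher. The percentage of genes not listed elsewhere was 46.9 when only the 4 other macrophage clusters were searched and 19.1 when only the other cell types were. Taking log2 ratios of shares, or leaving out genes near the ceiling or ribosomal and pseudogene entries, moved none of the counts by over 1.5 times. Among the 148 genes named by the fixed rule, centring turned the sign of small differences only: H2-DMb1 (1.3 points), S100a10 (2.1), H2-K1, Vim and Pdia6 (2.7 each), and Mgl2 and Clec10a (3.4 each). Jun, at -0.7 points, was outside that set and turns as well. The 9 listed immediate early genes are then not all lower. Genes and lists with equal shares became 4.8 points higher by construction. Without members near the ceiling, the medians of the class II, ferritin and actin lists were -1.1, -21.6 and -5.5 in place of 0.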

Other observations

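Some listed genes of iron and haem handling have not been described. Of 19 such genes, 5 were listed, and Fth1, the ferritin heavy chain, was counted in 100% of cells of both libraries, as Ftl1 was. Blvrb, biliverdin reductase B, was counted in 29.9% of control cells and 8.3% of cells labelled depleted, and Lcn2, which binds bacterial siderophores, in 34.7% and 6.2%. Blvrb was below its share in fibroblasts, which was at least 73.9% and 65.2%.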
